A study of Mus musculus with 6 samples.

Results

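The transcripts of 10 genes of the YAP pathway and of the response to stretch were followed in mouse epidermal basal cells. They were the coactivators Yap1 and Wwtr1, their DNA-binding partner Tead1, the regulators Ptpn14, Amotl2, Ajuba and Lats2, and the target genes Ccn1, Ccn2 and Ankrd1. All probe sets that the platform annotation pairs with one of these genes were taken, which gave 26 probe sets, of which 25 name 1 gene alone and 1 names both Xpo4 and Lats2 and was not used further. The 10 genes stand among 18193 genes on the array, and 9 of them were among the 10993 genes that were tested, which had a present call on both arrays of 1 group or more. Ankrd1 was the gene not tested.

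Cells came from the skin of 10-week-old female C57BL/6 mice, in 3 groups of 2 arrays: ventral skin at 16 days post coitum (dpc), dorsal skin at 16 dpc, and ventral skin of virgin mice. After overnight trypsin treatment and removal of the dermis, cells that carried α6-integrin and excluded propidium iodide were sorted, and their RNA was hybridised to Affymetrix arrays whose probe sets lie near the 3′ end of transcripts. The labels name no transgene or drug in any group and do not say whether replicates were separate mice or pools, so p-values measure only the spread between these arrays. Ventral skin at 16 dpc covers the grown abdomen, so it was set against ventral skin of virgin mice (pregnancy) and against dorsal skin at 16 dpc (site).

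YAP and its paralog TAZ, the product of Wwtr1, are transcriptional coactivators that bind DNA through TEAD factors. Kinases of the Hippo cascade, ending in LATS1 and LATS2, phosphorylate them and hold them in the cytoplasm, and stretched or spread cells with strong actin tension let them enter the nucleus. In the epidermis YAP is known from the basal layer, where it promotes proliferation. Much of this control acts on the proteins, which arrays of transcripts do not measure. Of the targets, Ccn1, Ccn2 and Ankrd1 are used as readouts of YAP activity, and Amotl2, Lats2 and Ptpn14 are targets that restrain YAP in turn.

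All 12 basal keratinocyte markers examined, among them Krt5, Krt14 and Itga6, were called present on all 6 arrays. Detection calls of present covered 47.2% to 53.3% of the 45101 probe sets per array. The ratio of 3′ to 5′ actin control signals, which grows as RNA is degraded, was 1.78 and 3.90 on the 16 dpc ventral arrays 1 and 2, 2.04 and 4.47 on the 16 dpc dorsal arrays and 2.46 and 2.15 on the virgin ventral arrays. The 16 dpc arrays numbered 2 thus stand apart in both sites, and in the column headers the arrays that carry the same number begin alike in all 3 groups. Summed signals of 9 immune markers measured were 5378 to 7738 in 16 dpc ventral, 6887 to 7397 in 16 dpc dorsal and 2597 to 3890 in virgin ventral cells, and those of 10 suprabasal keratinocyte markers were 114259 to 124197, 116136 to 136724 and 137304 to 138308 in the same groups. Their part in the results on the YAP genes was not tested.

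The DNA just before a transcript start of these genes was searched for the sequence that TEAD factors bind, since most of the 10 genes are called YAP targets or partners. In RefSeq, mouse build GRCm38.p6, the table of promoters held 8 of the 10 genes, all but Tead1 and Ccn2. The letters GGAATG, or CATTCC for the other strand, occurred within the 250 bases before the transcript start held in the table in 7 of the 8, against 12.6% of 32851 promoters and 14.4% of 27025 genes in the same table. The gene without the letters was Lats2. A match is a run of letters and not a measured binding site. The sequences of Ccn1 and Ptpn14 are shown up to the outermost annotated start of the gene because these 2 genes had the lowest unadjusted p-values in ventral skin, with the TEAD letters in capitals.
Ccn1 (chr3:145649986-145650235, minus strand): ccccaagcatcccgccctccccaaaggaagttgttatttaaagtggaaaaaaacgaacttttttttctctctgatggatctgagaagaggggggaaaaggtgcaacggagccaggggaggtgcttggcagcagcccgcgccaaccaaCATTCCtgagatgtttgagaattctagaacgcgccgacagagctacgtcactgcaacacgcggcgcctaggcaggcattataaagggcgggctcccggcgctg
Ptpn14 (chr1:189728018-189728215, plus strand): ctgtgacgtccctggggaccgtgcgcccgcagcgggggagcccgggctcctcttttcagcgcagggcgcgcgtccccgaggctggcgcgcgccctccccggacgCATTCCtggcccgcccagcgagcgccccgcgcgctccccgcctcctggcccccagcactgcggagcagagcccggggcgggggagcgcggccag

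In Ccn1 the letters began 103 bases before the annotated start of the gene and in Ptpn14 94 bases before it. For the other 5 genes 30 bases around each match are shown, so that the flanks can be compared. Ajuba and Ankrd1 held a pair of matches each.
Yap1 (chr9:8004720-8004749, minus strand): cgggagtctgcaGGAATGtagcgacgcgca
Wwtr1 (chr3:57576029-57576058, minus strand): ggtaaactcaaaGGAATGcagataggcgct
Amotl2 (chr9:102717727-102717756, plus strand): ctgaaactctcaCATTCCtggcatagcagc
Ajuba, far (chr14:54577830-54577859, minus strand): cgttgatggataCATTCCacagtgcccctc
Ajuba, near (chr14:54577808-54577837, minus strand): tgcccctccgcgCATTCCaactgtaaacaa
Ankrd1, far (chr19:36120037-36120066, minus strand): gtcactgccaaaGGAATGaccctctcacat
Ankrd1, near (chr19:36119950-36119979, minus strand): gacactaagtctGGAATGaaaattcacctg

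Of the 9 matches, 8 began between 94 bases, in Ptpn14, and 210 bases, at the far match of Ankrd1, before the annotated start of the gene. The match of Amotl2 lay inside the annotated gene, 648 bases past its outermost start, before an internal transcript start. The transcript starts used for Ptpn14 and Yap1 also lay inside the outermost start of the gene. On either strand, the AP-1 letters TGANTCA, bound by FOS and JUN proteins, and the CArG box, bound by serum response factor, were found before none of the 8 genes, against 6.75% and 1.47% of all promoters in the table. No match says only that these letters are not in this window.

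On their brightest probe sets the coactivators themselves varied little. Yap1 gave signals of 6800.3 and 7928 on the 16 dpc ventral arrays, 8199.6 and 9605 on the 16 dpc dorsal arrays, and 8042 and 6904 on the virgin ventral arrays, in the arbitrary units of the array. Both dorsal arrays lay above the other 4, whose values overlapped. The log2 fold change of 16 dpc ventral over virgin ventral cells was -0.02 (95% interval -0.40 to 0.36). The dimmer Yap1 probe set gave 543 and 591 in 16 dpc ventral, 497 and 696 in 16 dpc dorsal, and 497 and 406 in virgin ventral cells, so on it both 16 dpc ventral arrays were above both virgin arrays, with a log2 difference of 0.34. The probe sets of Yap1 thus placed the groups in different orders.

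Wwtr1 gave 2694 and 3046 in 16 dpc ventral, 3361 and 3397 in 16 dpc dorsal, and 3181 and 3526 in virgin ventral cells on its brightest probe set. Both 16 dpc ventral arrays were below the other 4, and the dorsal and virgin groups overlapped. The log2 fold change was -0.23 against virgin ventral cells (95% interval -0.56 to 0.11) and -0.24 against dorsal cells (-0.57 to 0.10). Tead1, the only TEAD gene among the 10, gave 1941 and 1595 in 16 dpc ventral, 1435 and 1322 in 16 dpc dorsal, and 1776 and 1569 in virgin ventral cells. Its lowest signals were the dorsal ones, and the ventral groups overlapped. The second Tead1 probe set was not called present on any array.

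**Figure D1:**
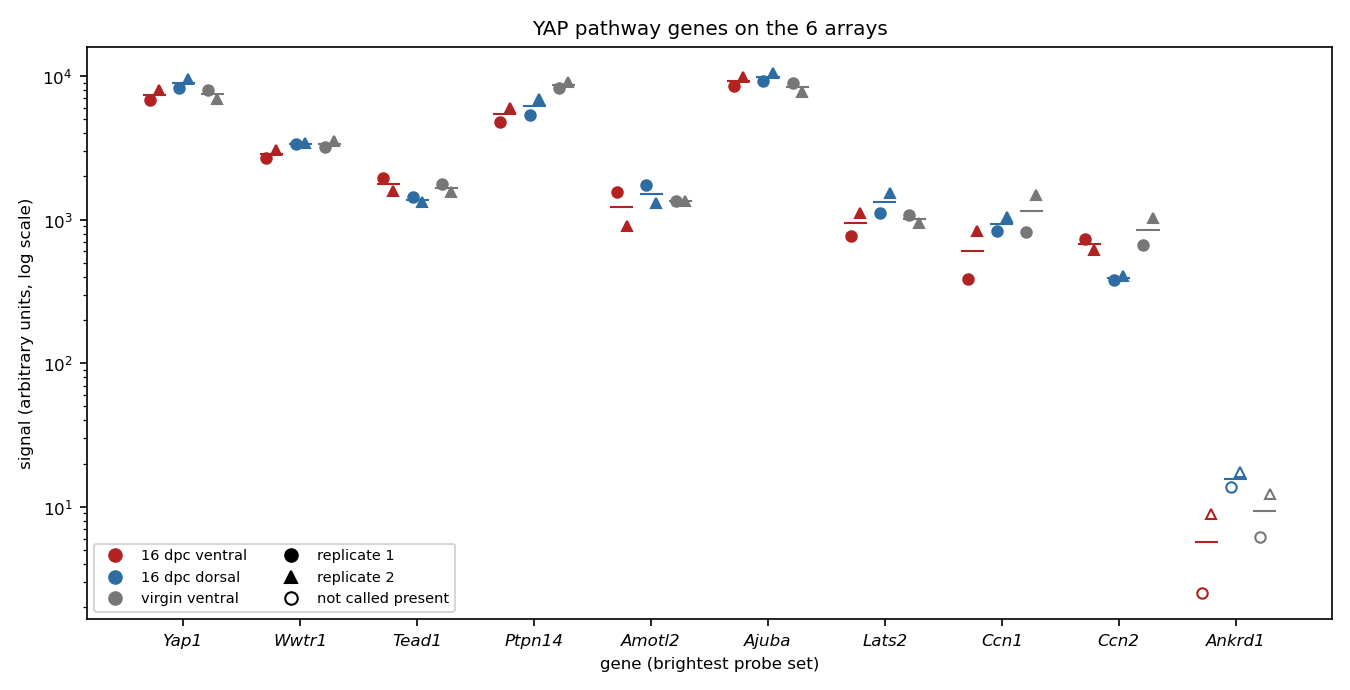
Signal of the brightest probe set of each of the 10 genes on each array (vertical axis in arbitrary units on a log scale), with horizontal bars at the group means of 2 arrays. Ptpn14 is higher on both virgin arrays than on the 16 dpc arrays, Ccn1 is lowest on 16 dpc ventral array 1, Ccn2 is lowest on the dorsal arrays, and open symbols show that Ankrd1 was not called present.

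Among the regulators, Ptpn14 had the largest log2 fold change against virgin ventral cells. It encodes a tyrosine phosphatase that binds YAP and keeps it out of the nucleus. Its brightest probe set gave 4807 and 6027 in 16 dpc ventral, 5356 and 6920 in 16 dpc dorsal, and 8305 and 9025 in virgin ventral cells. Every 16 dpc array was below both virgin arrays, and the dorsal and ventral values at 16 dpc overlapped. The means were 5417 ± 863 in 16 dpc ventral and 8665 ± 509 in virgin ventral cells (SD, n = 2 each), a log2 fold change of -0.69 ± 0.18 (SE, 95% interval -1.10 to -0.27). A lower signal of this kind can come from fewer cells with the transcript or from less RNA per cell, which cannot be told apart in RNA from pooled cells.

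On their brightest probe sets, the remaining regulators did not separate ventral cells at 16 dpc from either other group. Amotl2, a junction scaffold of the angiomotin family that binds YAP, gave 1547 and 899.6 in 16 dpc ventral, 1731 and 1297 in 16 dpc dorsal, and 1354 and 1344 in virgin ventral cells. Array 2 was the lower at both sites at 16 dpc, by 0.78 and 0.42 on the log2 scale, while the virgin arrays differed by 0.01. Ajuba, a LIM protein that holds LATS kinases at adherens junctions under tension, gave 8475 and 9861 in 16 dpc ventral, 9203 and 10493 in 16 dpc dorsal, and 8959.6 and 7691 in virgin ventral cells. The dorsal arrays were above the virgin ones and the 16 dpc ventral arrays overlapped both groups.

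Lats2, the kinase that phosphorylates YAP and TAZ, gave 772 and 1116 in 16 dpc ventral, 1106 and 1539 in 16 dpc dorsal, and 1075 and 949 in virgin ventral cells on its brightest probe set. Again the dorsal arrays were above the virgin arrays, and the 16 dpc ventral arrays overlapped both. A dimmer probe set, also called present on all 6 arrays, gave 367.8 and 219.4 in 16 dpc ventral and 321.8 and 287.5 in 16 dpc dorsal cells. In virgin ventral cells it gave 322.1 and 341.3, so on it the dorsal arrays were below the virgin ones by a narrow margin. Of 6 probe sets that name Lats2 alone, 3 were called present on no array, and 1 more only on the virgin arrays, at 45.6 and 77.8, against 31.0 and 38.7 without a present call in 16 dpc ventral and 74.7 and 51.5 in 16 dpc dorsal cells. That probe set was kept only because of the group in which it was called. On it both 16 dpc ventral arrays were below both virgin and both dorsal arrays, at signals without a present call. Over all probe sets 22% were lower in 16 dpc ventral than in virgin ventral cells without overlap.

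The target genes differed in the order of their groups. Ccn1, which encodes a secreted matrix-associated protein and is itself switched on within minutes of a stimulus, gave 384 and 828 in 16 dpc ventral, 834 and 1041 in 16 dpc dorsal, and 817 and 1474 in virgin ventral cells. Its lowest value was that of 16 dpc ventral array 1. The means were 606 ± 314 in 16 dpc ventral and 1145 ± 464 in virgin ventral cells (SD, n = 2 each), a log2 fold change of -0.96 ± 0.38 (SE, 95% interval -1.82 to -0.10), and the groups overlapped by a narrow margin. Without 16 dpc ventral array 1 the log2 fold change was -0.41, and without virgin array 2 it was -0.54.

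Ccn2, a close relative of Ccn1 that is also called connective tissue growth factor, had another order. It gave 727 and 619 in 16 dpc ventral, 382 and 407 in 16 dpc dorsal, and 671 and 1032 in virgin ventral cells. Both dorsal arrays were below the other 4, and the ventral groups overlapped. The log2 fold change of 16 dpc ventral over 16 dpc dorsal cells was 0.77 ± 0.24 (SE, 95% interval 0.23 to 1.31), with means of 673 ± 76.4 and 395 ± 17.8 (SD, n = 2 each). Ccn1 and Ccn2 thus took opposite signs between the sites at 16 dpc, where Ccn1 had a log2 fold change of -0.72 ± 0.38. Without array 1 of the 16 dpc ventral cells that of Ccn1 was -0.17 and that of Ccn2 0.65, and the difference between the genes was not tested.

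Ankrd1, a nuclear ankyrin-repeat protein known from stretched muscle, was not detected. Its brighter probe set gave 2.51 and 8.95 in 16 dpc ventral, 13.9 and 17.4 in 16 dpc dorsal, and 6.22 and 12.4 in virgin ventral cells, and all 6 calls were absent. The other was called present on 1 array, virgin array 2, at 24.2, against 2.26 and 21.6 in 16 dpc ventral and 2.12 and 2.95 in 16 dpc dorsal cells. The lowest present signal lay between 6.34 and 11.3 on the 6 arrays, and some of these values were above it. Because all calls but that on virgin array 2 were absent, no fold change is given.

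When the 9 genes were tested for pregnancy in ventral skin, none passed an adjusted p of 0.05 with limma and Benjamini-Hochberg adjustment over all genes. In this comparison 15 genes rose, or 0.136%, and 7 fell, or 0.0637%, of all genes tested. The mean was lower in 16 dpc ventral than in virgin ventral cells for 7 of the 9, against 47% of all genes, and higher for Tead1 and Ajuba, against 53%. The lowest adjusted p among the 9 was 0.243, for Ptpn14 (unadjusted p = 0.00492 with limma), followed by 0.390 for Ccn1 (unadjusted p = 0.0325). These 2 were the only genes of the 9 with an unadjusted p under 0.05, a count to be read against 11.6% of all genes in either direction. Groups did not overlap for Ptpn14 and Wwtr1, both lower in 16 dpc ventral cells, against 19.8% of all genes.

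Within same-numbered arrays Ptpn14 had log2 differences of -0.79 and -0.58 and Ccn1 of -1.09 and -0.83 between 16 dpc ventral and virgin ventral cells. Blocking on replicate number gave a limma adjusted p of 0.0923 for Ptpn14 and 0.0937 for Ccn1. When both 16 dpc arrays numbered 2, those with the high actin ratios, were left out, the log2 fold change was -1.52 for Ccn1 and -0.85 for Ptpn14. That fit takes its spread from the pair of virgin arrays alone, and the lone 16 dpc arrays are assumed to vary as they do, so no p-value is given.

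Between ventral and dorsal cells at 16 dpc, again none of the 9 genes passed limma's adjusted p of 0.05. Here 5 genes rose, or 0.0455%, and 4 fell, or 0.0364%, of all genes. The mean was lower in ventral cells for 7 of the 9, against 56.7% of all genes, and higher, as for 43.3% of all genes, for Ccn2 and Tead1, the 2 genes whose dorsal arrays were lowest. Groups did not overlap for those 2 (13.1% of all genes were higher without overlap) nor for Yap1, Wwtr1 and Ccn1 in the other direction (19.7%). Ccn2 alone had an unadjusted p under 0.05, at 0.0106, with an adjusted p of 0.694, where 5.09% of all genes did. Within same-numbered arrays its log2 difference was 0.93 and 0.61, and with the replicate block its adjusted p was 0.385.

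Dorsal cells at 16 dpc and ventral cells of virgin mice differ in both pregnancy and site, which cannot be told apart here, and they share arrays with both comparisons above. None of the 9 genes passed with limma, and of all genes 0% did in either direction, while 7.27% had an unadjusted p under 0.05. Groups did not overlap for Yap1, Ajuba and Lats2, higher in dorsal cells (24.3% of all genes), and for Ptpn14, Ccn2 and Tead1, lower in dorsal cells (13.6%). For Lats2 this holds on the brightest probe set, while a dimmer one was lower in dorsal cells, with a log2 difference of -0.12. Ccn2 had a log2 fold change of -1.08 ± 0.24 (SE), unadjusted p = 0.0015 and adjusted p = 0.318 with limma. Ptpn14 had -0.51 ± 0.18, unadjusted p = 0.0226 and adjusted p = 0.651 with limma. For Ptpn14 the dorsal and ventral comparisons with virgin cells had the same sign, and the direct difference of the sites was -0.18 (95% interval -0.60 to 0.24).

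**Figure D2:**
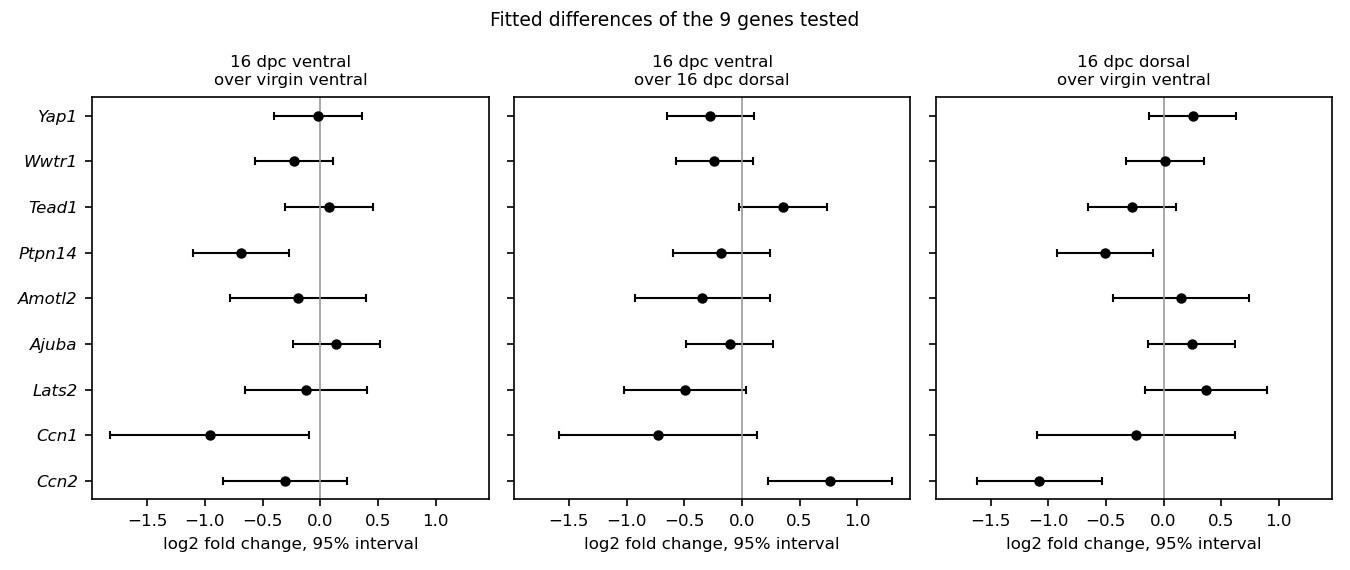
Log2 fold change (horizontal axis) of the 9 genes tested, with 95% intervals from limma, in 16 dpc ventral over virgin ventral, 16 dpc ventral over 16 dpc dorsal, and 16 dpc dorsal over virgin ventral cells. Intervals that leave out 0 are those of Ptpn14 and Ccn1 in the first panel, Ccn2 in the second, and Ptpn14 and Ccn2 in the third, and none of these passed after adjustment over 10993 genes.

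Ptpn14, Ccn1 and Wwtr1 have several detected probe sets, which were compared with each other. All 3 Ptpn14 probe sets were lower in 16 dpc ventral than in virgin ventral cells without overlap, with log2 differences of -0.69, -0.74 and -0.83. The 2 dimmer ones gave 545 and 587, and 213 and 251, in 16 dpc ventral cells, against 877 and 1020, and 449 and 378, in virgin ventral cells. All 4 Ccn1 probe sets were lower as well, as were 50.6% of all probe sets, with log2 differences of -0.96, -0.97, -1.30 and -1.47, and the 2 dimmest separated the groups. Those gave 64.7 and 152, and 63.6 and 119, in 16 dpc ventral cells, against 230 and 260, and 277 and 209, in virgin ventral cells, and array 1 of the 16 dpc ventral cells was not called present on either. Probe sets of one gene measure the same RNA extracts and are not replicates, and over all probe sets tested one by one 22% were lower without overlap.

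The 3 Wwtr1 probe sets were also lower in 16 dpc ventral than in virgin ventral cells, as were 50.6% of all probe sets. Their log2 differences were -0.23 on the brightest and -0.61 and -0.58 on the dimmer ones, and on the last the groups overlapped. Over all probe sets 22% were lower without overlap. The spread between replicate arrays was not the same on the 3. The brightest differed between the arrays of a group by at most 0.18 on the log2 scale, while the dimmer ones were lower on array 2 of every group. One gave 981 and 602 in 16 dpc ventral, 890 and 471 in 16 dpc dorsal, and 1324 and 1038 in virgin ventral cells, and array 2 was lower by 0.71, 0.92 and 0.35 on the log2 scale. The other gave 915 and 533, 877 and 509, and 1293 and 846 in the same groups. On this one array 2 was lower by 0.78, 0.79 and 0.61 on the log2 scale. The second arrays had actin ratios of 3.90 and 4.47 in the 16 dpc groups and 2.15 in the virgin group, and the part of RNA quality in these drops was not tested.

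**Figure D3:**
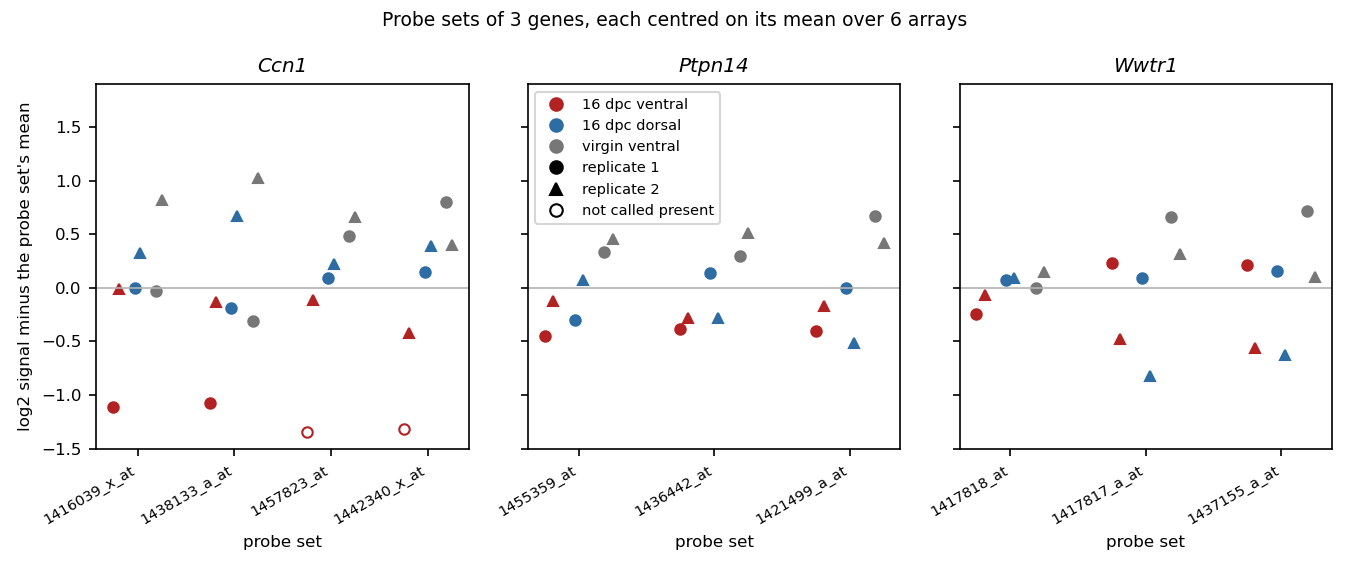
Log2 signal of every probe set of Ccn1, Ptpn14 and Wwtr1 minus that probe set's mean over the 6 arrays, by group and replicate (vertical axis in log2 units). Virgin arrays lie above both 16 dpc ventral arrays on all 3 Ptpn14 probe sets, 16 dpc ventral array 1 is the lowest on all 4 Ccn1 probe sets, and array 2 is the lower of each pair on the dimmer Wwtr1 probe sets.

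Around these genes, 8 lists of the Hippo cascade, its junction scaffolds, TEADs and their cofactors, YAP targets, focal adhesion and actin, SRF and MRTF, stretch channels and the nuclear envelope, and immediate early genes were examined. The lists other than that of the immediate early genes hold 98 genes besides the 10, of which 79 were tested. The immediate early genes are described apart, further below. With limma none of the 79 passed in 16 dpc ventral against virgin ventral cells, where 3 were higher and 9 lower at an unadjusted p under 0.05 (6.18% and 5.47% of all genes), or against 16 dpc dorsal cells, where 3 were higher and none lower (2.65% and 2.44% of all genes). Their median log2 fold change was -0.04 and 0.02 in these comparisons, against 0.02 and -0.03 for all genes. A median close to that of all genes does not show that single members did not differ. The counts of each list given next include those of the 10 genes that stand in it. For 16 dpc ventral against virgin ventral cells they are to be read against 53% of all genes with a higher mean and 47% with a lower one.

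The kinases of the cascade and their regulators had a median near that of all genes. Of 13 tested, 8 were higher and 5 lower in 16 dpc ventral than in virgin ventral cells, with a median log2 fold change of 0.04. Nf2, which encodes the LATS activator merlin, gave 1587 and 1821 in 16 dpc ventral, against 1260.0 and 1364 in virgin ventral cells, without overlap (log2 fold change 0.38, limma adjusted p = 0.415). Taok1, a kinase upstream of the cascade, gave 3192 and 1653 in 16 dpc ventral and 3380 and 3247 in virgin ventral cells, and its dorsal arrays gave 2948 and 1588, so that it too was low on the 16 dpc arrays numbered 2. Map4k4, Stk4 and Lats1 had log2 fold changes of -0.27, -0.25 and -0.15 in 16 dpc ventral over dorsal cells.

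Of the 18 junction scaffold genes tested, 13 were lower in 16 dpc ventral than in virgin ventral cells, against 47% of all genes, with a median of -0.16. Crb3, an apical polarity protein upstream of the cascade, gave 691 and 802 in 16 dpc ventral, 1025 and 903 in 16 dpc dorsal and 1052 and 998 in virgin ventral cells. Both 16 dpc ventral arrays were the lowest of the 6, and the log2 fold change was -0.46 against virgin ventral and -0.37 against dorsal cells (limma adjusted p = 0.373 and 0.9999). Dlg5 and Amotl1, a polarity scaffold and an angiomotin, had -0.27 and -0.29 against virgin ventral cells, and Tjp1, a tight junction scaffold, 0.19 against dorsal cells.

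The TEADs and cofactors had the lowest median of the lists, -0.48 over 6 genes tested. Of these, 5 were lower in 16 dpc ventral than in virgin ventral cells, against 47% of all genes. Vgll3, a vestigial-like protein that binds TEADs, gave 489 and 622 in 16 dpc ventral, 718 and 648 in 16 dpc dorsal, and 911 and 1132 in virgin ventral cells (log2 fold change -0.88 ± 0.20 against virgin, SE, limma adjusted p = 0.184). Tead3 gave 242 and 265 in 16 dpc ventral, 316 and 382 in 16 dpc dorsal and 430.2 and 412 in virgin ventral cells (log2 fold change -0.73 ± 0.22 against virgin, SE, limma adjusted p = 0.259). In both genes the ventral 16 dpc arrays were the lowest and the virgin arrays the highest, without overlap. Vgll4, which competes with YAP for TEADs, had the largest difference, -1.56, but gave 887 and 148 in 16 dpc ventral, 636 and 227 in 16 dpc dorsal and 963 and 1191 in virgin ventral cells, so its size rests on the 16 dpc arrays numbered 2. Between the arrays numbered 1 its log2 difference was -0.12, so the list median over 6 genes also depends on the arrays numbered 2. Tead2, Tead4, Vgll1 and Vgll2 were not called present on both arrays of any group and were not tested.

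Of the YAP targets, 19 of 22 were tested, 7 higher and 12 lower in 16 dpc ventral than in virgin ventral cells, with a median of -0.19. Fjx1, the relative of a Drosophila Golgi kinase, had the opposite sign to Ccn1. It gave 427 and 569.7 in 16 dpc ventral, 304 and 229 in 16 dpc dorsal, and 228 and 287 in virgin ventral cells, and both 16 dpc ventral arrays were above the other 4. Its log2 fold change was 0.95 ± 0.26 against virgin ventral and 0.90 ± 0.26 against dorsal cells (SE, limma adjusted p = 0.248 and 0.644). Myof, a membrane repair protein, gave 752 and 631 in 16 dpc ventral, 465 and 569.7 in 16 dpc dorsal, and 468 and 445 in virgin ventral cells (log2 fold change 0.59 against virgin). F3, the receptor that starts blood coagulation, was lower, at 106 and 102 in 16 dpc ventral, 127 and 93.6 in 16 dpc dorsal and 176 and 316 in virgin ventral cells (log2 fold change -1.18 against virgin).

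Against dorsal cells at 16 dpc, 10 of the 19 targets were higher in ventral cells, 4 of them at an unadjusted p under 0.05, and none lower at that level. Over all genes 43.3% had a higher mean, 2.65% were higher at an unadjusted p under 0.05 and 2.44% were lower. Igfbp3, a secreted binding protein of insulin-like growth factors, gave 14300.4 and 16061 in 16 dpc ventral, 9168 and 10617 in 16 dpc dorsal, and 17474 and 16363 in virgin ventral cells (log2 fold change 0.62 ± 0.16 against dorsal, SE, limma adjusted p = 0.505). Rbms3, an RNA-binding protein, gave 629 and 393 in 16 dpc ventral, 362 and 234 in 16 dpc dorsal, and 526 and 704 in virgin ventral cells (0.77 against dorsal). Like Ccn2, both had their lowest signals on the dorsal arrays.

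Genes of focal adhesions and actin were balanced, with 12 of 21 tested higher in 16 dpc ventral than in virgin ventral cells and a median of 0.02. Cnn3, an actin-binding calponin, had a log2 fold change of -0.85, and Cdc42ep3, an effector of CDC42, of -0.57, while Tagln2, an actin-binding transgelin, had 0.41. Against dorsal cells Rhoa, Tpm1 and Flna had 0.24, 0.33 and 0.26. Of the 10 genes of SRF and its cofactor MRTF that were tested, 7 were lower than in virgin ventral cells, with a median of -0.13, among them Egr1 at -0.85, while Vcl, the focal adhesion protein vinculin, had 0.25 and Mrtfb -0.17. Acta2, smooth muscle actin, gave 467 and 576 in 16 dpc ventral and 260 and 418 in 16 dpc dorsal cells, and its virgin arrays differed more, at 278 and 1098.

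The stretch-gated channels and the links of the nuclear envelope gave a median of 0.07 over 8 genes, 5 of them higher and 3 lower in 16 dpc ventral than in virgin ventral cells. Sun1, which ties the nucleus to the cytoskeleton, gave 3497 and 3437 in 16 dpc ventral, 3748 and 4237 in 16 dpc dorsal, and 4486 and 4915 in virgin ventral cells (log2 fold change -0.44 against virgin, limma adjusted p = 0.313). Its partner Sun2 had -0.56 and the linker Syne1 -0.39, and these were the 3 lower genes. The channel gene Piezo1 gave 643 and 589 in 16 dpc ventral, 543 and 550.5 in 16 dpc dorsal, and 532 and 485 in virgin ventral cells, with a log2 fold change of 0.17 against dorsal cells. Both 16 dpc ventral arrays of Piezo1 were above both virgin arrays. Trpv4, another channel, gave 128 and 169 in 16 dpc ventral, 88.2 and 123 in 16 dpc dorsal, and 122 and 137 in virgin ventral cells. It was called present on both 16 dpc ventral arrays, on neither dorsal array and on 1 virgin array, so that it entered the test only through the 16 dpc ventral cells, and its log2 fold change against dorsal cells was 0.50 (95% interval -0.25 to 1.25, limma adjusted p = 0.9999).

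**Figure D4:**
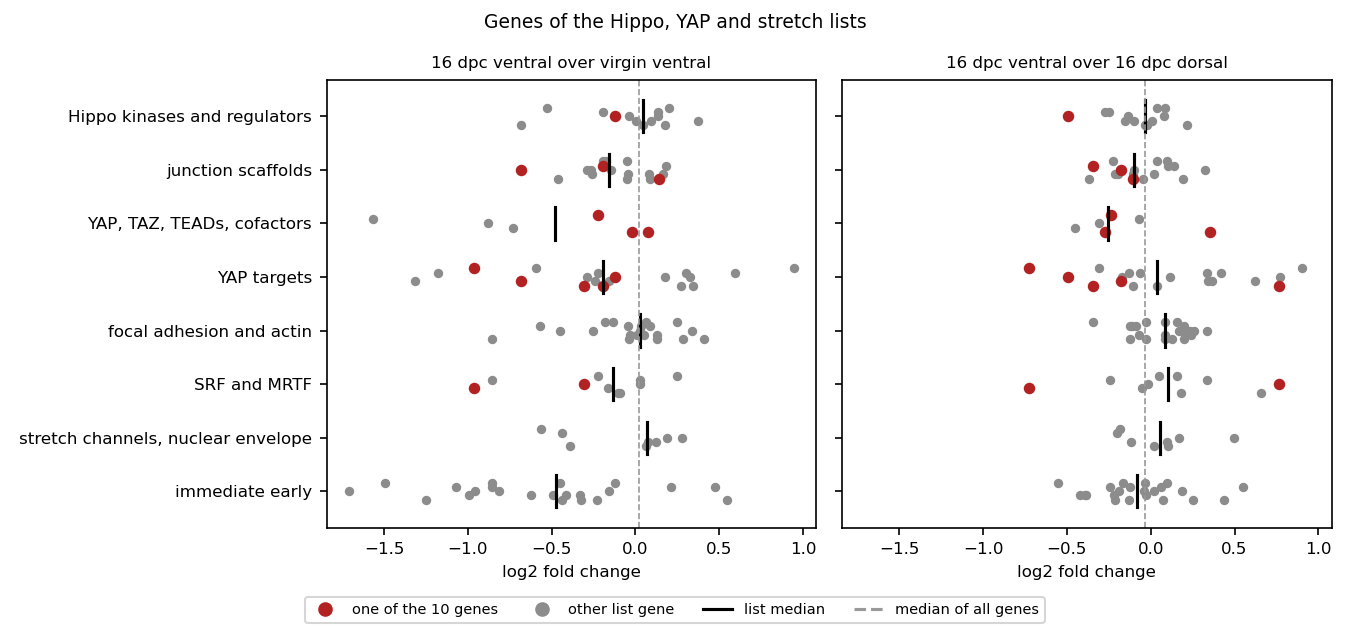
Log2 fold change of each gene tested in the 8 lists (horizontal axis), in 16 dpc ventral over virgin ventral cells (left) and over 16 dpc dorsal cells (right), with the genes of the 10 in red, the list median as a black bar and the median of all genes as a dashed line. The immediate early list and the list of TEADs and cofactors have their medians at -0.47 and -0.48 in the first panel, and the latter depends in part on Vgll4.

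Immediate early genes, which cells switch on within minutes, also when tissue is taken apart, mostly had the sign of Ccn1. Of the 22 tested, 19 had a lower mean in 16 dpc ventral than in virgin ventral cells, 16 without overlap, with a median log2 fold change of -0.47, and none passed with limma. Over all genes 47% had a lower mean and 19.8% were lower without overlap. Their summed signal was 60919.5 to 75867 in 16 dpc ventral, 68890.5 to 81247 in 16 dpc dorsal and 91459 to 100708 in virgin ventral cells. Both 16 dpc groups were thus below the virgin group, and the part of these genes' common level in the Ccn1 difference was not tested. Klf6, Maff and Atf3, all transcription factors of the early response, had -0.62, -0.82 and -1.25 against virgin ventral cells, and Klf6, Jun and Egr2 had -0.39, -0.42 and -0.56 against dorsal cells. Ccn1 on 16 dpc ventral array 1 was low where Atf3, at 316 there and 791 on array 2, was low too, against 1213 and 1170.4 on the virgin arrays. Most genes of the list were lower on 16 dpc ventral array 1 than on array 2. Among them were Fos at 2120 and 7306, Nr4a1 at 205 and 808, and Dusp1 at 3824 and 8613. The only genes of the list higher on array 1 were Jund, at 6214 and 2537, Egr2, at 1276 and 807, and Maff, at 277 and 267. Junb, at 724 and 761, differed little.

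Ccn2 is also made by fibroblasts, so their markers were read beside it. The summed signal of 11 fibroblast markers was 3859.95 to 4012 in 16 dpc ventral, 2371 to 3205 in 16 dpc dorsal and 3485 to 5076 in virgin ventral cells. Of these markers only Postn and Vim were called present on all 6 arrays, and Postn, which also stands in the hair follicle list, made up most of the sum. Postn gave 2657 and 2837 in 16 dpc ventral, 1351 and 2166 in 16 dpc dorsal, and 2616 and 4130 in virgin ventral cells, while Vim gave 1077 and 746, 761 and 721, and 462 and 396 in the same groups, so that Vim did not have the order of Ccn2. Dcn was called present on both virgin arrays, at 122 and 196, and on no 16 dpc array. It gave 39.1 and 33.0 in 16 dpc ventral and 12.0 and 42.3 in 16 dpc dorsal cells. Col3a1 was called present on all arrays but 16 dpc ventral array 2, and Col1a1 and Mfap5 each on a 16 dpc ventral array only. The markers Col1a2, Col5a1, Lum, Pdgfra and Pdgfrb were called present on none. Of 10 endothelial and mural markers, Pecam1, Cdh5, Kdr, Tek, Myh11 and Des were called present on none, and the summed signal was 823 to 969 in 16 dpc ventral, 529.6 to 775 in 16 dpc dorsal and 633 to 1548 in virgin ventral cells. The summed signal of 10 hair follicle markers was 9972 to 21109 in 16 dpc ventral, 13719 to 20685 in 16 dpc dorsal and 16738 to 31247 in virgin ventral cells. Of the 8 of them tested, 5 had a higher mean in 16 dpc ventral than in 16 dpc dorsal cells, 3 at an unadjusted p under 0.05. Over all genes these shares were 43.3% and 2.65%. In 16 dpc dorsal over virgin ventral cells 7 had a lower mean, 4 at that level, against 39.8% and 3.39% of all genes. Cd34, a marker of follicle stem cells, gave 333 and 184 in 16 dpc ventral, 68.4 and 53.4 in 16 dpc dorsal, and 85.4 and 391 in virgin ventral cells. Lgr5, another, gave 392 and 123, 89.5 and 68.0, and 134 and 484 in the same groups, and both were, like Ccn2, lowest on the dorsal arrays. Krt79, Krt17 and Nfatc1, of the same list, had higher means in 16 dpc dorsal than in 16 dpc ventral cells. Krt79 gave 11015 and 2741 in 16 dpc ventral and 12513 and 5978 in 16 dpc dorsal cells. Csn2, a milk casein of the mammary gland, gave 6185 and 699 in 16 dpc ventral, 204 and 348 in 16 dpc dorsal, and 172 and 2.29 in virgin ventral cells. It came from a list of 11 mammary, melanocyte and Merkel cell markers, of which 4 were tested. Of these, 3 had a lower mean in 16 dpc ventral than in virgin ventral cells, as did 47% of all genes. Among them Krt8 gave 104 and 9.98 in 16 dpc ventral and 220 and 474 in virgin ventral cells. Krt18 gave 94.3 and 47.6, and 161 and 413, in the same groups. Whether cells other than interfollicular keratinocytes contributed to the Ccn2 difference was not tested.

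On the brightest probe sets, the highest of the 6 signals exceeded the lowest 1.31 times for Wwtr1, 1.36 times for Ajuba and 1.41 times for Yap1. It did so 3.84 times for Ccn1 and 2.70 times for Ccn2, and the median over all genes tested was 1.52 times. The dimmer Wwtr1 probe sets varied more than its brightest, from 471 to 1324 and from 509 to 1293. Patterns over the arrays were compared by the root mean square difference of log2 signals, each gene centred on its own mean. Closest to Yap1 were Rps6, a protein of the small ribosomal subunit, at 0.029, Ephb3, a receptor of ephrins, at 0.032, and Rbm18, an RNA-binding protein, at 0.035, where Yap1 itself varied by 0.17 around its mean. Closest to Ccn2 was Vegfa, the vascular growth factor, at 0.14, which gave 294 and 282 in 16 dpc ventral, 144 and 192 in 16 dpc dorsal, and 259.8 and 370.3 in virgin ventral cells, followed by Vars, a tRNA synthetase, and Hcn2, an ion channel, both at 0.17. Closest to Ccn1 was Ptgds, a prostaglandin synthase called present on 2 arrays, at 0.14, then Gnrhr, a hormone receptor called present on 3, at 0.19, and Pgap3, an enzyme of membrane anchors called present on 6, at 0.20, so that the patterns nearest to Ccn1 come in part from signals near background. With 6 arrays and 10993 genes, near matches are a description only.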

How the data were processed

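RNA of sorted α6-integrin-positive epidermal cells was measured on 6 Affymetrix Mouse430_2 arrays. The deposited files give a signal intensity on a linear scale and a detection call per probe set. The submitters' processing notes name Affymetrix Expression Console, version 1, as the authors' tool, and per the file headers the signals are mas5 output, whose 2% trimmed mean was 499.8 on every array. Such scaling cannot show a change of total RNA, and probe sets far from the 3′ end lose signal in degraded RNA. The series value table holds the same signals and was used only to check them. The genome build and annotation the authors used are not given in the sources used here. Precision is limited by 2 arrays per group, and a signal without a present call is only a bound.

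Of 45101 probe sets, 34945 name 1 gene in the platform annotation, and 34741 of these matched the RefSeq gene table by gene number. Values were floored at 1 before log2 was taken. Each gene was represented by its brightest probe set (highest mean of log2 signals), and a gene was kept where some group had present calls on both its arrays. Differences were tested with limma 3.58.1 (lmFit, eBayes with trend) in R 4.3.3. The fit held the 6 arrays as 3 groups, which left 3 residual degrees of freedom beside 5.79 from the prior. Tests were two-sided and p-values were adjusted by Benjamini-Hochberg over 10993 genes, with a threshold of 0.05. The procedure was tested on simulated data first. A log2 fold change is a difference between group means of log2 signal, while means ± SD were taken on signals.

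Groups and replicate numbers came from the labels. The day of gestation is that of the labels, from which the file headers differ slightly. The members and lists were chosen with earlier results of these data known. Named besides the 10 genes were, per list, the 3 genes of smallest unadjusted p in each of the ventral comparisons, and for Yap1, Ccn1 and Ccn2 the 3 genes nearest in pattern. The genes without a test were Ankrd1 and 14 list genes not called present on both arrays of a group, and 5 list genes were not named by a single-gene probe set. Alternatives were the replicate number as a block, the variance model, the choice of probe set, the detection filter, the normalization, the floor, the groups in the fit and leaving out arrays. Column headers hold no array that the labels do not name. Upstream sequences are from RefSeq, GRCm38.p6.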

Additional observations from a re-analysis of the deposited data

How the results depend on the processing

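Under all alternatives but one, 0 of the 9 genes and 0 genes of the 8 lists passed with limma in any comparison. The exception was leaving out both 16 dpc arrays numbered 2. It leaves a lone array in each 16 dpc group, so its calls among the 9 genes and the lists are not read as results. In ventral over virgin cells its log2 fold changes were -1.52 for Ccn1 and -0.85 for Ptpn14. In ventral over virgin cells 139 of 151 values of the 9 genes kept their sign and side of the threshold, and in ventral over dorsal cells 147 of 151 did. The 2 arrays per group limit every interval, and small differences could not be resolved.

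The counts over all genes depended on the processing more than the results for the 9 genes. They were 22, 9 and 0 in ventral over virgin, ventral over dorsal and dorsal over virgin cells as reported, and 86, 16 and 11 with the replicate block. Deviations of same-numbered arrays correlated at 0.45 between the 16 dpc groups and at 0.007 and 0.03 with the virgin group, so same-numbered arrays deviated together between the 16 dpc groups, but not with the virgin group, and not every pair passed the limit of 0.1 set for pairing. The block changed no call among the 9 genes. In ventral over virgin cells the count was 0 without the trend, 5 for the mean of all probe sets, 0 with each probe set tested, 11 without shared probe sets, 12 after quantile normalization, 0 with a floor of 32, 46 with only the groups compared and 115 without both 16 dpc arrays numbered 2. In ventral over dorsal cells it was 1 without the trend, 0 for the mean of all probe sets, 1 with each probe set tested, 0 with a floor of 32, 0 with only the groups compared and 24 without those arrays. In dorsal over virgin cells it was 1 without shared probe sets, 5 with genes present on all 6 arrays, 12 with only the groups compared and 62 without those arrays. Leaving out each array in turn gave 1 to 59, 0 to 7 and 0 to 33 genes in the same order of comparisons. The cause of these shifts was not tested.

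Some signs turned. With the mean of all probe sets, Yap1 was 0.16 and Lats2 0.0003 in ventral over virgin cells and Wwtr1 0.025 in ventral over dorsal cells. Without both 16 dpc arrays numbered 2, Amotl2 was 0.20 in ventral over virgin cells. Leaving out each array in turn moved the log2 fold changes in ventral over virgin cells from -0.13 to 0.0895 for Yap1, -0.0654 to 0.22 for Tead1, -0.58 to 0.20 for Amotl2, -0.39 to 0.14 for Lats2 and -0.62 to 0.0016 for Ccn2, and in ventral over dorsal cells from -0.36 to 0.007 for Ptpn14, -0.74 to 0.0462 for Amotl2 and -0.21 to 0.0051 for Ajuba.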
